A study of Mus musculus with 24 samples.

Results

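Synpr, Rprm, Sfrp4, Tpbg and Adamts6 are 5 genes whose RNA was higher in the cerebellum of SCA1 mice than in that of WT mice. They were selected on these measured values: of the 54232 genes listed for each mouse, 22502 were abundant enough to be tested, and 8 of those (0.0356%) were raised in SCA1 against WT mice at an adjusted p under 0.01 and a log2 fold change over 0.5. The 5 genes were those with the lowest adjusted p among the 8. Their difference between SCA1 and WT mice is therefore given as a description, with no test. Tests between groups were kept for groups whose levels played no part in the choice, though their spread did. Pairs of these genes were also tested, on the variation within groups over all the mice.

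Spinocerebellar ataxia type 1 (SCA1) is caused by an expanded glutamine tract in ATXN1, a protein that binds the transcriptional repressor Capicua, and Purkinje cells of the cerebellum are among the neurons it harms first. The genes code for proteins of unlike function. Synpr makes synaptoporin, a membrane protein of synaptic vesicles related to synaptophysin. Rprm makes Reprimo, which p53 induces and which can arrest the cell cycle. Sfrp4 makes a secreted Frizzled-related protein that binds Wnt ligands, and Tpbg makes trophoblast glycoprotein, a cell-surface protein with leucine-rich repeats that can dampen Wnt signaling. Adamts6 makes a secreted metalloprotease that cuts extracellular matrix proteins.

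RNA of the cerebellum of 24 mice aged 6 weeks was sequenced, 1 library per mouse. WT mice (8) carried 2 unexpanded Atxn1 alleles (2Q/2Q), SCA1 mice (4) a knockin allele of 154Q beside a 2Q allele, and SCA1 S776A mice (4) a 154Q allele that CRISPR/Cas9 had given the serine-to-alanine change S776A, beside an unedited 2Q allele. S776A double mice (4) carried the change on both the 154Q and the 2Q allele, and WT S776A homozygous mice (4) on both of 2 unexpanded alleles. All alleles sit at the mouse Atxn1 locus under its own promoter, in every cell that uses it, and the mice were backcrossed to C57BL/6J. Each edited allele was made in 2 founder lines, and the labels do not say which line a mouse came from. The comparisons with SCA1 mice ask what the expanded allele goes with, and those among the S776A genotypes what the lost phosphorylation site goes with on either allele.

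The libraries held 62163600 to 88430180 fragments on genes. The labels do not give the sequencing batch. Splitting the libraries on 4 summary shares, without reference to any gene, gave a batch 1 of 16 mice and a batch 2 of 8, the latter made up of all 4 WT S776A homozygous and 4 of the WT mice. Each genotype was compared with the 4 WT mice sequenced alongside it. Levels are in CPM, TMM-scaled counts relative to a library's total on genes. Each of the 5 genes had at least 137 counts in every library. Counting error alone gives a coefficient of variation of at most 1.41% for Synpr, below its spread in every group. For Rprm in the WT mice of batch 1 (8.17%, against 5.18% between mice) and in SCA1 mice (5.80%, against 4.19%) it was larger than the spread seen, and likewise for Tpbg in SCA1 S776A and Adamts6 in batch 2 WT mice. Atxn1 itself was between 49.1 and 54.1 CPM in the WT mice of batch 1 and between 55.2 and 63.9 CPM in SCA1 mice. It was between 55.3 and 67.0 CPM in SCA1 S776A and between 50.3 and 69.5 CPM in S776A double mice. In batch 2 it was between 47.9 and 62.0 CPM in WT and between 55.9 and 59.0 CPM in WT S776A homozygous mice. High Xist was seen in 1 S776A double mouse and in 2 mice of each batch 2 group, and in no other.

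On GRCm38 with the GENCODE M21 annotation, Synpr lies on chromosome 14 from 13284780 to 13616340 on the plus strand, and a rarely counted pseudogene, Gm15913, sits inside one of its introns. Rprm lies on chromosome 2 from 54084093 to 54085552 on the minus strand and has 1 exon of 1460 bases. Sfrp4 and Adamts6 lie on chromosome 13, as Atxn1 does, from 19623104 to 19632994 and from 104287835 to 104496695, at 25.9 and 58.3 megabases from it. Tpbg lies on chromosome 9 from 85842380 to 85847040 on the plus strand. An exon of Tpbg overlaps one of the antisense transcript 9330154J02Rik, which had a mean count of 23.1 against at least 225 for Tpbg, and unstranded counts cannot part the reads of the 2 where they overlap.

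Because the genes rose together, the 250 bases before their start sites are shown from RefSeq (GRCm38.p6) for the 3 of 5 that matched an entry, read 5′ to 3′ on the gene's strand with CpG pairs in capitals. The Synpr window is chr14:13284530-13284779 on the plus strand, that of Rprm chr2:54085553-54085802 on the minus strand and that of Tpbg chr9:85842130-85842379 on the plus strand. For Synpr and Tpbg these are the windows at the start of the annotated gene, and RefSeq gives each a further start, with windows at chr14:13453708-13453957 and chr9:85842602-85842851, that are not printed. Sfrp4 and Adamts6 are named only.
Synpr: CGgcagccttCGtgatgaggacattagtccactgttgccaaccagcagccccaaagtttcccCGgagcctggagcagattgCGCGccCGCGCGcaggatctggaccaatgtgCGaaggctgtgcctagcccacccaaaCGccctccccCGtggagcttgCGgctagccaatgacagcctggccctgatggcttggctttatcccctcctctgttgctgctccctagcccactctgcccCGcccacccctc
Rprm: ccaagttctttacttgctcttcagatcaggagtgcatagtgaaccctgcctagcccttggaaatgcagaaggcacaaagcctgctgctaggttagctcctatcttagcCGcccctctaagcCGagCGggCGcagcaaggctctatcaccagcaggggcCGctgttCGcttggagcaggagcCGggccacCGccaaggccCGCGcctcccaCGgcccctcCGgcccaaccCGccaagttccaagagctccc
Tpbg: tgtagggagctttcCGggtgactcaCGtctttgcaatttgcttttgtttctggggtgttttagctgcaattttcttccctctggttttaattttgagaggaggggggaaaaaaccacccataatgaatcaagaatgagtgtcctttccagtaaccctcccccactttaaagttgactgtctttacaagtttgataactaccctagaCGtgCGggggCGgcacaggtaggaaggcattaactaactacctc

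The printed windows of Synpr and Rprm held 64% and 62.4% G and C with 13 CpG pairs each, and that of Tpbg 45.2% with 5 pairs. At the further starts the order was the other way round, with 44.4% and 1 pair for Synpr and 64.8% and 14 pairs for Tpbg. Over 32851 windows of the same length in RefSeq the median was 52.4% with 6 pairs. None of these 5 windows held a Capicua octamer (TGAATGAA, TGAATGGA, TCAATGAA or TCAATGGA, on either strand), which 3.19% of all windows held. None held the TCF/LEF motif of Wnt target genes (CTTTGAA or CTTTGAT, on either strand), which 7.48% of all windows held. These letters are only absent from the 250 bases searched.

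Synpr, the vesicle gene, was by far the most abundant of the 5. Its level was 78.0, 78.2, 66.4 and 75.3 CPM in the WT mice of batch 1 and 128, 118, 143 and 109 CPM in SCA1 mice. It was 117, 111, 88.4 and 114 CPM in SCA1 S776A mice and 129, 118, 114 and 99.9 CPM in S776A double mice. All 12 mice with an expanded allele lay above all 4 WT mice, and the 3 genotypes with that allele overlapped. The difference from WT was 0.74 on the log2 scale (standard error 0.10) in SCA1, 0.53 (standard error 0.10) in SCA1 S776A and 0.63 (standard error 0.10) in S776A double mice. In batch 2 Synpr was higher from the start, at 117, 107, 101 and 109.8 CPM in WT mice and 114, 129.6, 130.4 and 158 CPM in WT S776A homozygous mice. The WT mice of batch 2 all lay above those of batch 1, by 0.55 on the log2 scale, so levels of Synpr can be read only within a batch.

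Rprm, the cell cycle gene, had the least spread between SCA1 mice. It stood at 2.24, 2.10, 2.36 and 2.16 CPM in the WT mice of batch 1 and at 4.05, 4.28, 4.09 and 3.86 CPM in SCA1 mice. SCA1 S776A mice had 3.04, 3.37, 3.23 and 2.74 CPM, and S776A double mice 2.98, 3.25, 3.66 and 3.58 CPM. Both S776A genotypes lay wholly between WT and SCA1 mice, without overlap with either, and overlapped each other. The log2 fold change against WT was 0.88 (standard error 0.12) in SCA1, 0.48 (standard error 0.12) in SCA1 S776A and 0.60 (standard error 0.12) in S776A double mice. In batch 2 the WT mice had 2.72, 2.57, 2.04 and 3.12 CPM and the WT S776A homozygous mice 2.91, 3.79, 2.825 and 3.15 CPM, with overlap.

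Sfrp4, the secreted Wnt-binding gene, was at 3.45, 3.92, 2.99 and 3.11 CPM in the WT mice of batch 1 and 6.16, 5.48, 6.27 and 6.82 CPM in SCA1 mice. In SCA1 S776A mice it was at 4.61, 5.17, 4.16 and 4.19 CPM, above every WT and below every SCA1 mouse. S776A double mice spread the most, at 4.83, 6.20, 5.34 and 3.58 CPM, from within the WT range to within the SCA1 range. Against WT the log2 fold change was 0.88 (standard error 0.13) in SCA1, 0.43 (standard error 0.13) in SCA1 S776A and 0.57 (standard error 0.13) in S776A double mice. Batch 2 was lower, with 2.83, 2.75, 2.40 and 2.42 CPM in WT mice and 2.53, 2.91, 2.43 and 2.46 CPM in WT S776A homozygous mice. Those WT mice all lay below the WT mice of batch 1.

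Tpbg, the membrane gene with a Wnt-dampening product, was at 3.34, 3.80, 3.72 and 3.20 CPM in the WT mice of batch 1 and 6.48, 6.38, 5.63 and 5.94 CPM in SCA1 mice. SCA1 S776A mice sat close together at 4.22, 4.28, 3.94 and 4.35 CPM, just above the WT range, and S776A double mice were at 4.81, 4.86, 5.47 and 3.63 CPM. No S776A mouse of either kind reached the SCA1 range. The log2 fold change was 0.80 (standard error 0.13) in SCA1, 0.26 (standard error 0.13) in SCA1 S776A and 0.42 (standard error 0.13) in S776A double mice. In batch 2 the WT mice had 3.62, 3.39, 4.48 and 4.89 CPM and the WT S776A homozygous mice 3.61, 4.64, 3.48 and 3.94 CPM, which overlapped throughout.

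Adamts6, the protease gene, rose the least of the 5. It was at 10.6, 10.5, 9.39 and 9.21 CPM in the WT mice of batch 1 and at 12.9, 14.8, 14.5 and 13.96 CPM in SCA1 mice. SCA1 S776A mice, at 11.3, 12.2, 10.2 and 10.7 CPM, overlapped WT, and S776A double mice, at 13.3, 11.97, 11.6 and 11.05 CPM, lay above all WT mice of their batch and reached into the SCA1 range. The log2 fold change was 0.50 (standard error 0.08) in SCA1, 0.16 (standard error 0.08) in SCA1 S776A and 0.27 (standard error 0.08) in S776A double mice. The WT mice of batch 2 were far lower, at 7.00, 6.75, 7.255 and 6.69 CPM, a difference of -0.52 from those of batch 1 on the log2 scale. WT S776A homozygous mice had 6.53, 6.21, 6.88 and 7.53 CPM and surrounded them.

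**Figure D1:**
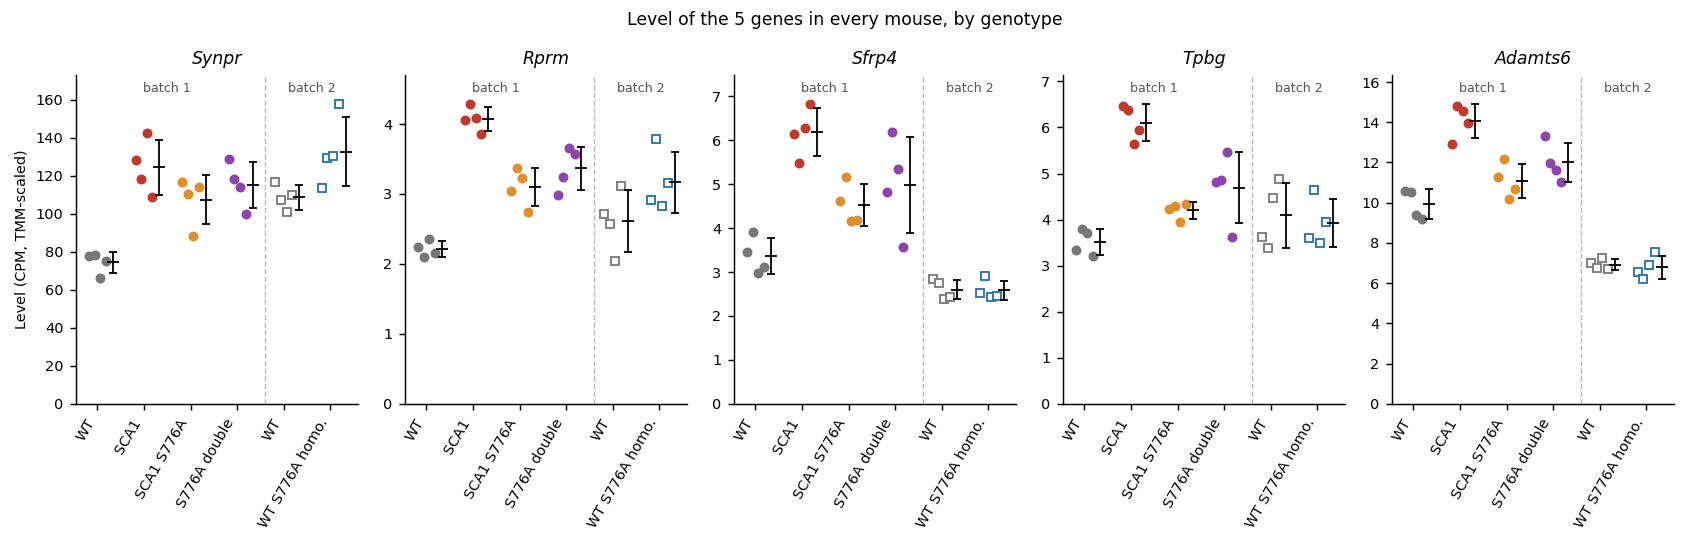
Level of each gene in each of the 24 mice, in TMM-scaled CPM, with a panel and a linear axis from 0 per gene; points are mice, filled in batch 1 and open in batch 2, and the black marks are the mean and SD of 4 mice. In batch 1 the means of all 5 genes run from WT through SCA1 S776A and S776A double to SCA1 mice, and the WT mice of batch 2 differ from those of batch 1 most for Synpr (log2 difference 0.55) and Adamts6 (-0.52).

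With its length taken into account, Synpr was again the most abundant in the WT mice of batch 1, at 7.89 ± 0.587 CPM per kilobase of exon (SD, n = 4). Rprm was next at 1.52 ± 0.0786 (SD, n = 4), followed by Adamts6 at 1.27 ± 0.0938 (SD, n = 4), Tpbg at 0.919 ± 0.0752 (SD, n = 4) and Sfrp4 at 0.805 ± 0.100 (SD, n = 4), in the same unit. The order of all 5 was the same in SCA1 mice. There Adamts6 was at 1.80 ± 0.107 CPM per kilobase (SD, n = 4), with Tpbg at 1.59 ± 0.103 (SD, n = 4) and Sfrp4 at 1.48 ± 0.131 (SD, n = 4) below it.

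In batch 1 the order of the genotype means was the same for all 5 genes: WT lowest, then SCA1 S776A, then S776A double, then SCA1. These 3 differences share the same 4 WT mice, and the SCA1 mice chose the genes, so the order is a description. The log2 fold change in SCA1 S776A mice as a percentage of that in SCA1 mice was 71.4% for Synpr, 54.9% for Rprm, 48.8% for Sfrp4, 32.1% for Tpbg and 31.3% for Adamts6. In S776A double mice it was 85.1% for Synpr, 68.6% for Rprm, 64.6% for Sfrp4, 52.3% for Tpbg and 54.6% for Adamts6. SCA1 S776A mice overlapped S776A double mice for each of the genes. S776A double and SCA1 mice overlapped for Synpr, Sfrp4 and Adamts6 but not for Rprm or Tpbg. Directly against SCA1 mice, the log2 fold change in SCA1 S776A mice ranged from -0.54 (Tpbg, standard error 0.12) to -0.21 (Synpr, standard error 0.10), and in S776A double mice from -0.38 (Tpbg, standard error 0.12) to -0.11 (Synpr, standard error 0.10).

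Across all genes, 39 of the 22502 tested (0.173%) were called in either direction in SCA1 against WT mice, 3 (0.0133%) in SCA1 S776A and 6 (0.0267%) in S776A double mice. Adamts6, with 0.50 on the log2 scale, lay just inside the choice, and ran from 0.46 to 0.53 when 1 mouse at a time was left out. In those fits all 5 genes passed both thresholds in SCA1 against WT mice 7 times, 4 of them 16 times and 3 of them 1 time.

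The 3 raised genes just outside the choice were Marcks, Slc44a5 and A830018L16Rik. Marcks, which makes an actin-binding substrate of protein kinase C, was 0.62 above WT on the log2 scale in SCA1 mice (standard error 0.10). Slc44a5, of a choline transporter-like family, had 0.75 (standard error 0.13) and A830018L16Rik 0.72 (standard error 0.13). A830018L16Rik stayed close to the SCA1 level in SCA1 S776A mice, with means of 14.1 CPM in SCA1, 13.3 CPM in SCA1 S776A, 13.1 CPM in S776A double and 8.55 CPM in WT mice of batch 1.

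The effect of the second S776A change was tested between groups whose levels had no part in the choice, though their spread did. S776A double mice, in which the 2Q allele is changed too, were set against SCA1 S776A mice, which keep an intact 2Q allele. All 5 genes were slightly higher in S776A double mice, by 0.10 (Synpr), 0.12 (Rprm), 0.14 (Sfrp4), 0.16 (Tpbg) and 0.12 (Adamts6) on the log2 scale, with standard errors of 0.10, 0.12, 0.13, 0.12 and 0.08. The S776A double mouse was the higher one in 11 of 16 pairs of mice for Sfrp4 and in 12 of 16 for each of the other 4 genes. None passed the threshold (adjusted p = 1 for each, edgeR quasi-likelihood F-test, Benjamini-Hochberg over all genes). The 95% intervals ran from -0.10 to 0.31 for Synpr, -0.12 to 0.36 for Rprm, -0.13 to 0.41 for Sfrp4, -0.10 to 0.42 for Tpbg and -0.05 to 0.28 for Adamts6. The median over the 5 genes was 0.12, beside -0.0037 over all genes, of which 48.56% were above 0. The 5 were chosen for a shared pattern and measured in the same mice, so their common direction is not 5 separate results. No gene of the 22502 was called (0%). At an unadjusted p under 0.05 there were 666, and DESeq2 with the batch as a covariate called 0 and ComBat-seq followed by DESeq2 called 2.

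Among mice with no expanded allele, the WT S776A homozygous mice were set against the WT mice of batch 2. Synpr was higher in them by 0.29 on the log2 scale (standard error 0.10, 95% interval 0.08 to 0.49), and Rprm by 0.28 (standard error 0.12, 95% interval 0.03 to 0.52). The homozygous mouse was the higher one in 15 of 16 pairs for Synpr and in 14 of 16 for Rprm. Neither passed the threshold by the edgeR F-test with Benjamini-Hochberg adjustment (adjusted p = 0.485 for both, unadjusted p = 0.00805 for Synpr and 0.0269 for Rprm). Over the other settings tried the adjusted p was between 0.0323 and 1 for both genes, the lowest without the batch in the fit. Sfrp4, Tpbg and Adamts6 had log2 fold changes of -0.01, -0.06 and -0.03 (standard errors 0.13, 0.12 and 0.08), with adjusted p of 0.98, 0.867 and 0.913. No gene was called here either (0%), while 2246 had an unadjusted p under 0.05. DESeq2 with the batch as a covariate called 0 genes, and ComBat-seq followed by DESeq2 called 99, none of them among the 5.

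The homozygous mouse with the highest Synpr, replicate 4 at 158 CPM, also stood apart in other measures. Mitochondrial genes took 6.73% of its fragments on genes, against at most 4.82% in the other mice. Its Rgs8, a Purkinje cell gene, was at 912 CPM, against 1214 to 1436 CPM in the other 3 homozygous mice. Genes of other kinds differed too. Its Syp, the synaptophysin gene, was lower, at 466 CPM against 570 to 717 CPM in those 3 mice. Its Calb2, a unipolar brush cell marker, was higher, at 825.5 CPM against 635.5 to 730.1 CPM. Without this mouse the log2 fold change of Synpr was 0.19 (adjusted p = 1, edgeR F-test), over 1.5 times smaller, and that of Rprm was 0.28. The part of this mouse's makeup in the Synpr value was not tested. Choroid plexus markers were also lower in homozygous mice, at a summed 42.2 to 951 CPM against 560 to 2790 CPM in the WT mice of batch 2. With the choroid plexus gene Ttr in the fit the log2 fold change was 0.26 for Synpr and 0.33 for Rprm, and with Xist in the fit it was 0.28 for Synpr and 0.30 for Rprm.

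Whether the S776A change went with a different shift on an expanded than on an unexpanded background was tested as an interaction. It takes the shift from SCA1 S776A to S776A double mice and subtracts the shift from WT to homozygous mice of batch 2. The interaction was -0.19 for Synpr and -0.16 for Rprm (standard errors 0.14 and 0.17), and 0.15, 0.22 and 0.15 for Sfrp4, Tpbg and Adamts6 (standard errors 0.19, 0.18 and 0.11), on the log2 scale. None passed the threshold (adjusted p = 0.997 for each, edgeR F-test with Benjamini-Hochberg adjustment). No gene at all was called (0%), with 648 at an unadjusted p under 0.05, and DESeq2 with the batch as a covariate called 0 and ComBat-seq followed by DESeq2 called 35.

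**Figure D2:**
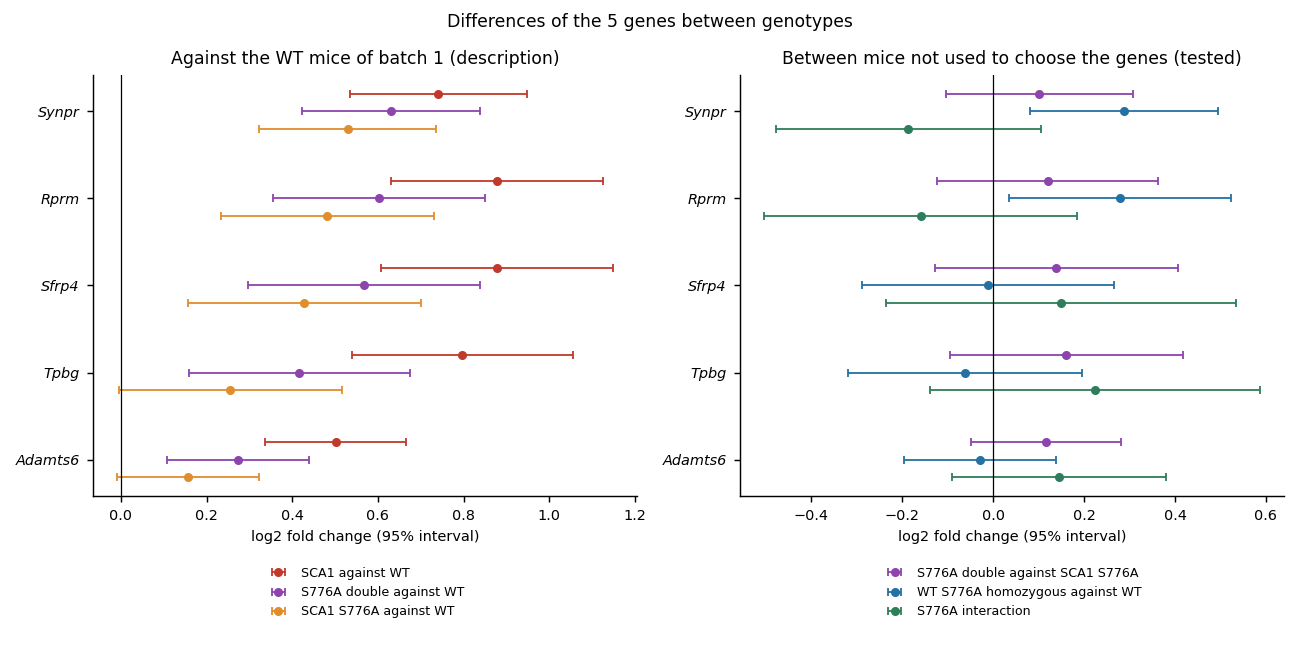
Log2 fold change of each gene with its 95% interval (points and bars). The left panel sets the 3 genotypes that carry 154Q against batch 1 WT mice. The right panel shows the comparisons between groups whose levels did not choose the genes. On the left, SCA1 lies furthest from 0 and SCA1 S776A nearest for each gene, and on the right only the Synpr and Rprm intervals of WT S776A homozygous against WT mice leave 0 out.

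Mice of one genotype also differ among themselves. The choice of the genes used the size of this variation, through the adjusted p, but not whether 2 genes vary together. The log2 CPM of each mouse was taken as its deviation from the mean of its genotype and batch, and the 10 pairs of genes were compared over the 24 mice by two-sided permutation tests within groups. The SD of the deviations was 0.15 for Synpr and Rprm, 0.19 for Sfrp4, 0.18 for Tpbg and 0.10 for Adamts6. Synpr and Adamts6 varied together the most, with a Pearson r of 0.57 (permutation p = 0.0177, adjusted p = 0.177 over the 10 pairs) and a Spearman rho of 0.57 (permutation p = 0.0142, adjusted p = 0.142). Without the 2 mice farthest from the median of Synpr, r was 0.43. Rprm and Adamts6 had the lowest r, at -0.32 (permutation p = 0.143, adjusted p = 0.476) with rho at -0.27 (permutation p = 0.257, adjusted p = 0.766), and r was -0.26 without the 2 farthest mice. The remaining pairs had r between -0.05 and 0.35. None of the 10 pairs passed the adjustment, so genes that rose together in SCA1 mice were not shown to vary together between mice of one genotype.

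S776A double replicate 4 had the lowest Synpr, Sfrp4, Tpbg and Adamts6 of its genotype, and the second highest Rprm. Sfrp4 and Tpbg had an r of 0.34 with this mouse and of 0.05 without the 2 mice farthest from the median of Sfrp4.

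**Figure D3:**
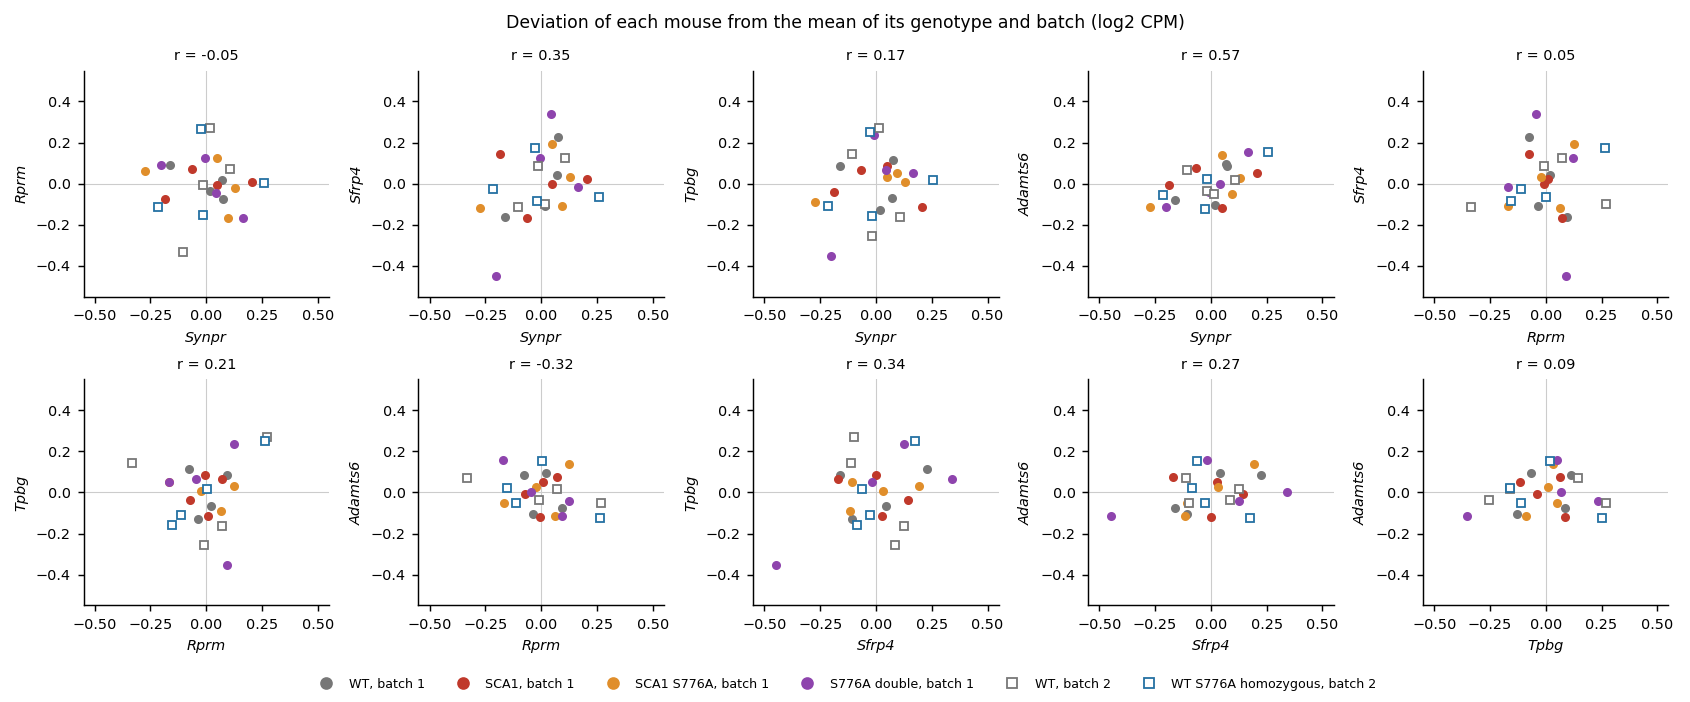
Deviation of each of the 24 mice from the mean of its genotype and batch in log2 CPM, for the 10 pairs of genes (both axes from -0.55 to 0.55); colors and symbols mark the genotype and batch, and Pearson r stands above each panel. Most panels show no clear slope, Synpr with Adamts6 has the highest r (0.57), and a single S776A double mouse lies far below the others in Sfrp4.

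Over all 24 mice, with the WT mean of the batch taken off, the gene outside the 5 that was most like Synpr was Gpr85 (Pearson r = 0.95), which makes an orphan receptor of the brain, followed by Cd200 (r = 0.90) and Tmem35a (r = 0.89). The SCA1 difference of Gpr85 was smaller, at 0.30 on the log2 scale. Its levels were 48.4, 48.9, 49.5 and 51.2 CPM in the WT mice of batch 1 and 62.4, 60.4, 64.7 and 56.2 CPM in SCA1 mice, without overlap. Again leaving out the 5 themselves, Rprm was most like Slc44a5 (r = 0.87), Marcks (r = 0.83) and Gpr85 (r = 0.81). Sfrp4 was most like Kcnk2 (r = 0.89), the gene of a background potassium channel, Tuba1a (r = 0.89) and Gm14597 (r = 0.82). Kcnk2 also led for Tpbg (r = 0.83), before Otud1 and Gm14597 (both r = 0.82). Adamts6 was most like Lrp1b (r = 0.89), which makes a large receptor of the LDL receptor family, Plod2 (r = 0.83) and Gm14597 (r = 0.82). Between the 5 genes r ran from 0.72 (Rprm with Adamts6) to 0.86 (Sfrp4 with Tpbg and with Adamts6), so some of them were more alike than the genes named here. These r values hold the genotype difference that chose the genes and come with no test.

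Relatives and pathway partners of the 5 genes were examined in 8 lists, which were drawn up with earlier results of these data known. None of the listed genes passed the edgeR test in either direction in any of the comparisons, beside the 0.173% of all genes called in SCA1 against WT mice. Between 1 and 5 genes of a list had an unadjusted p under 0.05 in SCA1 mice, beside 1857 of all genes (8.25%). By DESeq2 with the batch as a covariate, by ComBat-seq followed by DESeq2 and in the mice of 1 batch alone, 1 gene of the 8 lists was called in SCA1 mice, Rprml. The values that follow compare SCA1 with batch 1 WT mice, by the edgeR F-test and Benjamini-Hochberg adjustment.

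Of the synaptophysin family and other vesicle proteins, 0 of 21 were called and 10 of 21 were above 0, with a median log2 fold change of -0.02, and 12 of 21 (median 0.03) with the choroid plexus gene Ttr in the fit. Syp, synaptophysin itself, was at 507 ± 22.7 CPM in the WT mice of batch 1 and 507 ± 26.4 CPM in SCA1 mice (SD, n = 4 each). Syngr2, a synaptogyrin, had the lowest p of the list, at a log2 fold change of 0.27 (adjusted p = 0.488). Slc17a7, the vesicular glutamate transporter of granule cells, was the most abundant, at -0.10 (adjusted p = 0.881).

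Of the relatives of Reprimo and the p53 targets, 0 of 20 were called and 13 of 20 were above 0, with a median of 0.04, while 7 of 20 were (median -0.06) without the batch in the fit. Rprml, the one close relative of Rprm, went the other way. It had 1.78, 1.92, 1.74 and 1.57 CPM in the WT mice of batch 1 and 0.81, 0.53, 0.93 and 0.82 CPM in SCA1 mice, and these ranges did not overlap. It differed by -1.19 on the log2 scale (standard error 0.24, adjusted p = 0.0161), past 0.5 in size but short of the threshold of 0.01 on the adjusted p. DESeq2, ComBat-seq followed by DESeq2, the fit without a filter and the mice of 1 batch alone put it past both thresholds. In SCA1 S776A mice its log2 fold change was -1.04 and in S776A double mice -0.81. The WT mice of batch 2 spread from 0.83 to 1.79 CPM and so reached down to the SCA1 level. Besides Rprml, the genes of this list with an unadjusted p under 0.05 were the p53 targets Btg2, at a log2 fold change of 0.38 (unadjusted p = 0.0027, adjusted p = 0.208), and Plk2, at 0.16 (unadjusted p = 0.0195, adjusted p = 0.464). Trp53 and its targets Cdkn1a, Mdm2 and Ccng1 had 0.03, 0.15, 0.03 and 0.12 (adjusted p = 0.96, 0.865, 0.922 and 0.777).

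Sfrp4 and Tpbg both bear on Wnt signaling. Among the other secreted and membrane Wnt inhibitors, 0 of 15 tested were called and 5 of 15 were above 0, with a median of -0.07. Sfrp1 differed by 0.59 on the log2 scale (standard error 0.25, adjusted p = 0.511), with 4.86, 4.64, 7.96 and 7.49 CPM in the WT mice of batch 1 and 7.95, 9.51, 6.68 and 13.5 CPM in SCA1 mice, which overlapped. Sfrp2, Sfrp5 and Frzb, the rest of that family, had 0.10, 0.52 and -0.08 (adjusted p = 0.943, 0.831 and 0.875). In the order given for Sfrp1, the choroid plexus gene Ttr was at 180.5, 9.205, 1614 and 1609 CPM in those WT mice. In those SCA1 mice Ttr was at 1583, 2798, 835.9 and 4859 CPM. The part of choroid plexus in the values of Sfrp1 and Sfrp5 was not tested. Wif1, which binds Wnt proteins outside the cell, had the lowest p of the list at -0.40 (adjusted p = 0.384).

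Of the Wnt ligands, 0 of 15 tested were called and 3 of 15 were above 0, with a median of -0.09. Wnt3, made by Purkinje cells, was at 21.7 ± 1.97 CPM in WT and 16.8 ± 0.80 CPM in SCA1 mice (SD, n = 4 each), a log2 difference of -0.37 (standard error 0.09, adjusted p = 0.102). Wnt7a, the most abundant ligand, had -0.15 (adjusted p = 0.62). Of the Wnt receptors, 0 of 20 were called and 9 of 20 were above 0, with a median of -0.01. Of the Wnt target genes, 0 of 13 were called and 7 of 13 were above 0, with a median of 0.01, but 4 of 13 (median -0.08) without the batch in the fit. Axin2, the usual marker of the pathway, had 0.01 (adjusted p = 0.988).

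Of the other ADAMTS proteases, the ADAMTS-like proteins and the tissue inhibitors of metalloproteases, 0 of 27 were called and 10 of 27 were above 0, with a median of -0.05, though 18 of 27 (median 0.09) without the batch in the fit. Adamts10, a close relative of Adamts6 and the most abundant of the list, had a log2 fold change of -0.23 (adjusted p = 0.543). Timp2, an inhibitor, had the lowest p at 0.23 (adjusted p = 0.398). Of 13 matrix proteins on which such proteases can act, 0 were called and 7 were above 0, with a median of 0.01, and 5 without the batch (median -0.09).

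The makeup of the tissue was read from 11 lists of marker genes. In bulk tissue, fewer cells of a type and less RNA per cell cannot be told apart. The markers of the cerebellum's main neurons, 14 for Purkinje and 10 for granule cells, were all detected. All 14 Purkinje cell markers were below 0 in SCA1 mice, with a median log2 fold change of -0.29, and 13 of 14 without the batch in the fit. None was called by edgeR, although 9 of 14 had an unadjusted p under 0.05, beside 8.25% of all genes. Summed, they came to 11890 to 13710 CPM in batch 1 WT mice, 9208 to 10100 CPM in SCA1, 10270 to 11770 CPM in SCA1 S776A and 10070 to 12760 CPM in S776A double mice. Rgs8, a regulator of G protein signaling in Purkinje cells, had -0.53 (standard error 0.11, adjusted p = 0.0152) and was called by DESeq2, by ComBat-seq followed by DESeq2, in the mice of 1 batch alone and without the batch in the fit. The part of this shift in the higher levels of the 5 genes was not tested.

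Choroid plexus, the tissue that makes cerebrospinal fluid and borders the cerebellum, was present in very unequal amounts. All 9 of its markers were detected, with a summed level of 35.7 to 1790 CPM in batch 1 WT mice, 928 to 5259 CPM in SCA1, 49.6 to 3232 CPM in SCA1 S776A and 34.3 to 3132 CPM in S776A double mice. In SCA1 mice 9 of 9 were above 0, 1 of them at an unadjusted p under 0.05, and none was called by edgeR or by DESeq2. With the log2 level of its defining gene Ttr (transthyretin) added to the fit, an alternative added once the data had been seen, the log2 fold changes in SCA1 mice were 0.78 for Synpr, 0.82 for Rprm, 0.95 for Sfrp4, 0.80 for Tpbg and 0.54 for Adamts6.

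Of the remaining lists, 8 of 8 oligodendrocyte markers were above 0 in SCA1 mice (median 0.16), though 2 of 8 without the batch in the fit (median -0.21), and 1 of 12 markers of inhibitory interneurons and Golgi cells (median -0.18). The medians were -0.08 for granule cells, -0.03 for unipolar brush cells, 0.00 for Bergmann glia and astrocytes, 0.05 for microglia, -0.02 for meninges and fibroblasts and 0.04 for endothelial and mural cells. Without the batch in the fit the last 3 turned, to -0.07, 0.13 and -0.25. Calb2, the most abundant unipolar brush cell marker, had 0.42 (adjusted p = 0.0635). Brainstem and midbrain markers summed to at most 12.8 CPM in any mouse. None of the markers of these lists passed the test.

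**Figure D4:**
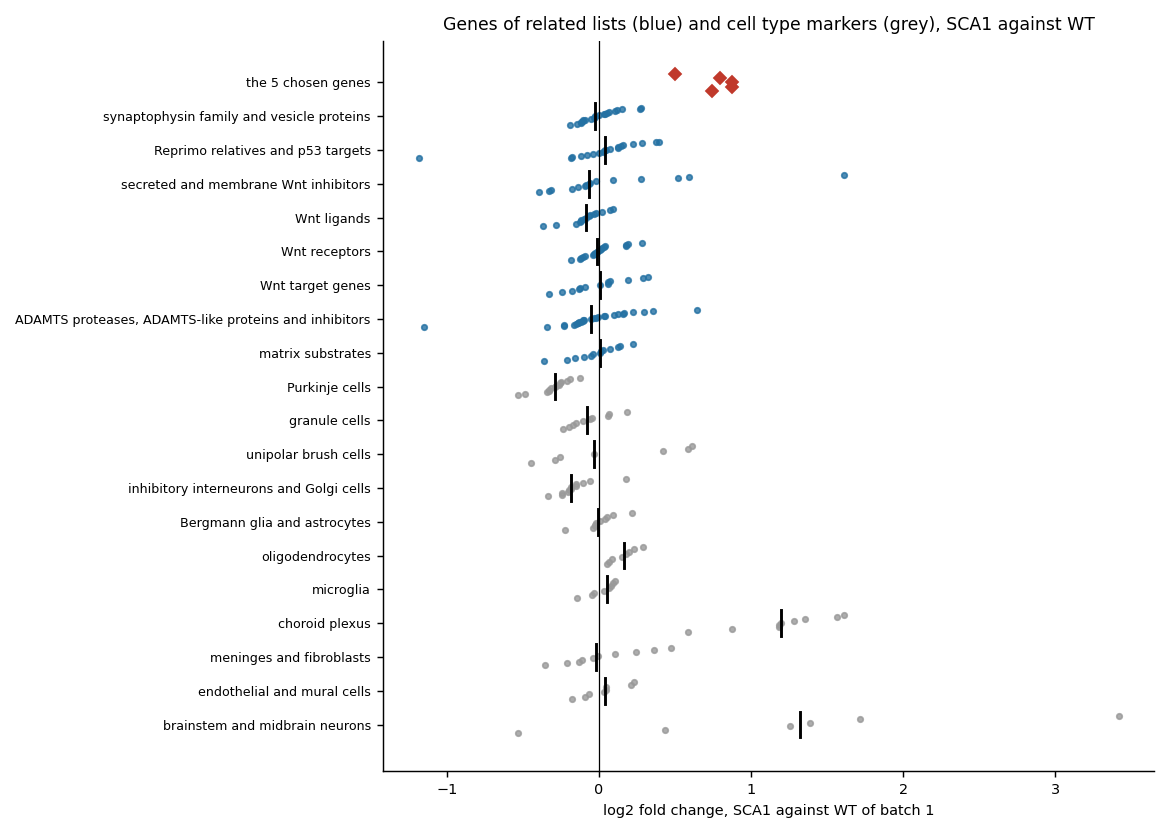
Log2 fold change of single genes in SCA1 against WT mice of batch 1, by list: the 5 chosen genes (red diamonds), related lists (blue) and cell type markers (grey), with the median of each list as a black bar. The chosen genes lie between 0.50 and 0.88, the related lists scatter around 0 with medians between -0.09 and 0.04 (-0.14 and 0.09 without the batch in the fit), and the Purkinje cell markers all lie below 0 (13 of 14 without the batch in the fit).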

How the data were processed

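After trimming with Trimmomatic 0.36 and alignment to GRCm38.p6 by STAR 2.7.2d, the authors deposited raw counts of fragments per gene for each library, before the batch correction their methods describe. The unstranded counts were used, and 1 further feature of the files is not reported here. Gene identifiers were matched to GENCODE M21 (54165 of 54232). Batches were inferred by k-means (k of 2, 50 starts) on each library's percentages of fragments unmapped, multimapping, outside genes and ambiguous (mean silhouette 0.634).

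Counts were scaled by TMM and tested by the quasi-likelihood F-test in edgeR 4.0.16 (R 4.3.3), with genotype and batch in 1 fit of all 24 mice and Benjamini-Hochberg adjustment over 22502 genes kept by filterByExpr. Calls required an adjusted p under 0.01 and a log2 fold change beyond 0.5 in size. Gene pairs were tested by 100000 permutations on log2 CPM (prior count 2). The fit was tested on simulated data. Litters are not given, so shared litters could not be accounted for, and the p-values treat each mouse as independent. Named genes are the 5, the other raised genes, the 3 genes most like each, and in each list the gene with the lowest p and the most abundant one; further list genes (Syp, the p53 targets, the Sfrp family, Axin2) were chosen after their values were seen. The 5 genes and the lists were chosen with earlier results of these data known. Alternatives were no batch in the fit, the mice of 1 batch only, DESeq2 size factors, no filter, Xist or Ttr as a covariate, DESeq2 1.42.0, ComBat-seq (sva 3.50.0) followed by DESeq2, and leaving out each mouse.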

Additional observations from a re-analysis of the deposited data

How the results depend on the processing

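The number of genes called depended on the tool. ComBat-seq followed by DESeq2 called 117 genes in SCA1, 32 in SCA1 S776A and 50 in S776A double mice against WT, 99 in WT S776A homozygous against WT, 2 in S776A double against SCA1 S776A mice and 35 in the interaction. DESeq2 with the batch as a covariate called 66, 9 and 19 in the first 3 comparisons, and the mice of 1 batch alone gave 65, 0 and 11. Ttr as a covariate left 1 gene in SCA1 S776A mice. Leaving out 1 mouse at a time gave 21 to 56 genes in SCA1, 0 to 5 in SCA1 S776A and 3 to 10 in S776A double mice. The cause was not tested.

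In WT S776A homozygous against WT mice, the log2 fold change of Tpbg was 0.0419 without the batch in the fit. Leaving out 1 mouse gave -0.16 to 0.0339 for Tpbg, -0.0841 to 0.0321 for Sfrp4 and -0.0855 to 0.0013 for Adamts6, values on both sides of 0. Leaving the batch out moved the SCA1 against WT difference of Synpr to 0.44 and that of Adamts6 to 0.74, since the WT mice of both batches then form 1 group. In S776A double against SCA1 S776A mice and in the interaction, each of the 5 genes kept its sign under every alternative. The interaction could not be fitted with 1 batch alone, since it spans both. No paired analysis was possible because the replicate numbers were given in accession order and pair no mice.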
